A study of Mus musculus with 15 samples.

Results

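The 10 genes described here mark T cells and their helper and regulatory subsets, and were followed in conjunctival tissue: Cd3e, Cd4, Cd8a, Gata3, Foxp3, Icos, Ctla4, Il2ra, Tnfrsf4 and Il10. They were taken by symbol from the table of estimated counts, so 10 of its 55487 genes are described, and all 10 passed the filter on low counts (at least 10 counts in at least 5 libraries) together with 18996 other genes. RNA-Seq was performed on conjunctiva of wild-type (WT) female mice of a strain given as BALC/c in the labels and BALB/c in the methods, aged 9 to 12 weeks, with 5 libraries in each of 3 groups. All mice, controls included, had been sensitized at the ear, where MC903 (calcipotriol, 2.5 nmol daily for 7 days) was painted to induce dermatitis and OVA was injected into the dermis. Eye drops followed every day for 7 days and ended on day 24. The PBS group received drops of PBS, and the label gives its antibody as N/A. The isotype and anti–IL-4Rα groups received OVA drops (250 μg each), with an isotype control antibody or anti–IL-4Rα at 25 mg/kg. Since the PBS group differs from the isotype group both in the challenge and in the antibody label, these cannot be told apart. The sample titles give each library a mouse number of its own, and do not say whether tissue was pooled, so the p-values measure the spread between libraries. Library totals lay between 48622246 and 87745024 counts. None of 10 surface epithelium genes was at 0 throughout (summed level 11158 CPM or more in every library), and genes of lacrimal gland, hair follicle, meibomian gland and skeletal muscle were also present.

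CD4+ helper T cells recognize peptide antigen through a T cell receptor that signals through the CD3 chains, with CD4 as coreceptor. In allergic tissue they can become T helper 2 cells under the transcription factor GATA3 and secrete IL-4, IL-5 and IL-13, while regulatory T cells, directed by FOXP3, restrain the response through CTLA-4, the high-affinity IL-2 receptor chain CD25 (Il2ra) and IL-10. ICOS and OX40 (Tnfrsf4) are costimulatory receptors of activated T cells, and CD8α marks cytotoxic T cells.

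The promoters of these genes are shown because IL-2 and IL-4 signal to the nucleus through STAT factors and because GATA3 and activated T cells act through GATA and AP-1 sites. RefSeq starts on GRCm38.p6 were found for 7 of the 10 genes, in 8 windows of 250 bases upstream of a start. Cd4, Icos and Il10 had no entry. Both strands were searched for 4 motifs: a STAT5-type site written TTCNNNGAA, a STAT6-type site with 1 N more, the site AGATAA of GATA factors and the AP-1 site TGANTCA. The only matches were in the second of the Foxp3 windows, with the STAT5-type letters starting at position -139 and the GATA letters at -47 from the start. In the promoter set as a whole, 7.02% of 32851 windows of this length hold the STAT5-type letters, 9.99% the GATA letters, 5.85% the STAT6-type letters and 6.75% the AP-1 letters. The Foxp3 window is printed with the matches in capitals, followed by the windows of Cd8a and Il2ra, which rose after OVA challenge as Foxp3 did and hold none of the 4 motifs. The Foxp3 window, chrX:7580233-7580482 on the plus strand, lies inside the annotated Foxp3 gene, upstream of one of its starts, and inside an exon of the noncoding gene Flicr. The Cd8a window, chr6:71373177-71373426 on the plus strand, overlaps 60 bases of an exon of Gm44174. The Il2ra window, chr2:11642542-11642791 on the plus strand, overlaps no annotated gene.
Foxp3: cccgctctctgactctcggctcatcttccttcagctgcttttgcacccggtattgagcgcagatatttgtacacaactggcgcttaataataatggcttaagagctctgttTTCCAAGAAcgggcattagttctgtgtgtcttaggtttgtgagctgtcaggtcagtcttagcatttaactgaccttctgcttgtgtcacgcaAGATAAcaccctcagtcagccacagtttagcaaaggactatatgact
Cd8a: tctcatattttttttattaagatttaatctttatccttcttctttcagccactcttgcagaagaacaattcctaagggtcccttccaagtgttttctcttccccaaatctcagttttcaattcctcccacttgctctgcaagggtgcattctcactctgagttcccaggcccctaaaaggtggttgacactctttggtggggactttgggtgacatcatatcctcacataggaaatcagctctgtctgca
Il2ra: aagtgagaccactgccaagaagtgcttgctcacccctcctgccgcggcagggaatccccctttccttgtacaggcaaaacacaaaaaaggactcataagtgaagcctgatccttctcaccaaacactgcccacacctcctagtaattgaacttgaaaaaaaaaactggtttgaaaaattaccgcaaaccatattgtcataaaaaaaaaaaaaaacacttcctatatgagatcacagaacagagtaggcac

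With OVA challenge, 6 of the 10 genes were higher in the isotype group than in the PBS group (edgeR's quasi-likelihood test, Benjamini-Hochberg adjusted over 19006 genes): Cd4, Cd8a, Foxp3, Icos, Il2ra and Il10. Over all genes tested, 17.0% were called in this comparison, 9.53% higher and 7.49% lower. The log2 fold changes of the 10 genes ran from 0.17 to 3.58 with a median of 1.12, against a median of -0.01 over all genes. Between anti–IL-4Rα and isotype, 0 of the 10 were called by edgeR, where 14.9% of all genes were called, 6.73% higher and 8.13% lower. Of the fold changes 9 of 10 were negative (median -0.24, all genes 0.01), and none of the 10 genes had groups that did not overlap, against 4.96% of all genes in the lower direction and 2.35% in the higher. Of the 10, 3 had an unadjusted p under 0.05 (Cd8a, Gata3 and Tnfrsf4), DESeq2 called 2 (Gata3 and Cd8a) and limma voom 1 (Cd8a). In anti–IL-4Rα against PBS, 2 of the 10 were called, both higher (Cd4 and Foxp3), against 3.72% of all genes called (2.28% higher and 1.44% lower), and 5 had all anti–IL-4Rα libraries above all PBS libraries, against 2.98% of all genes (3.12% in the lower direction). In bulk tissue, fewer cells of a type and less RNA per cell cannot be told apart, and this holds for every gene described here.

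**Figure D1:**
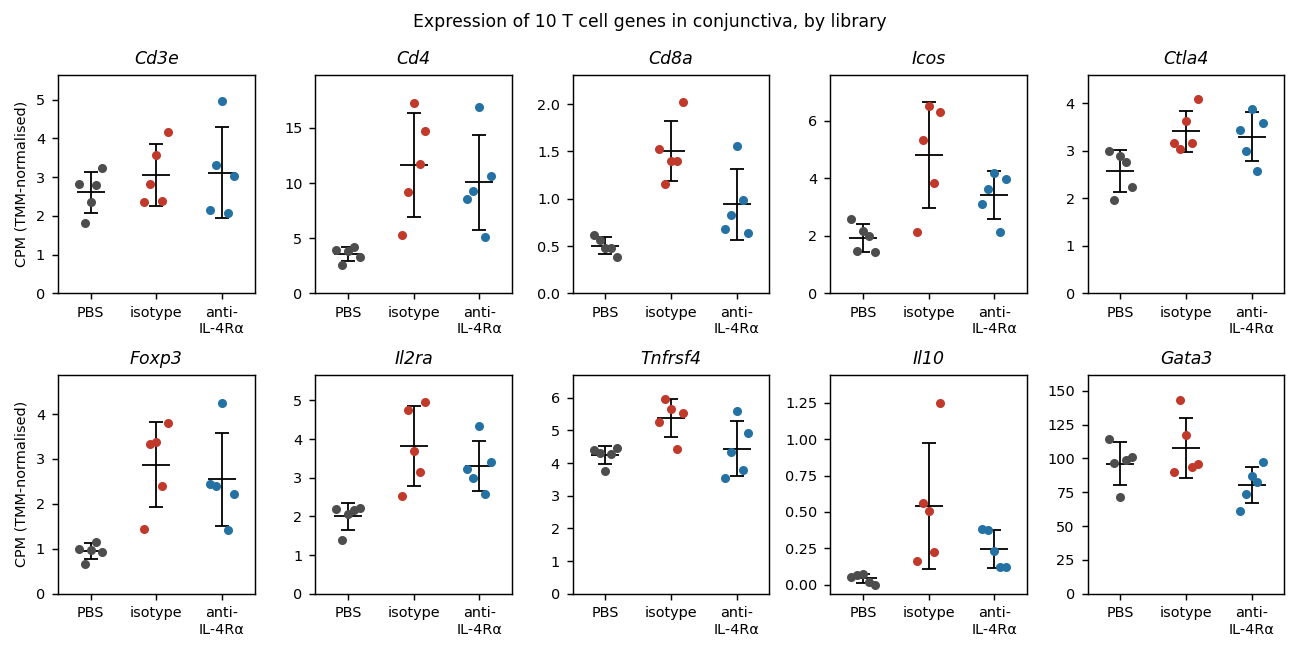
CPM (vertical axes from 0, or just below 0 for Il10) of the 10 genes in each of the 15 libraries, by group, with the mean and SD (n = 5). Cd4, Cd8a, Foxp3, Il2ra, Ctla4 and Il10 have all 5 isotype libraries above all 5 PBS libraries, while Cd3e and Gata3 overlap in the 3 groups.

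The coreceptor and receptor genes divided. Cd4 (chr6:124864692-124888221, minus strand), the coreceptor for MHC class II, had 3.95, 2.55, 3.88, 4.22 and 3.34 CPM (counts scaled to library size with TMM factors) in PBS replicates 1 to 5 (gene coordinates are GRCm38). It had 5.31, 9.18, 17.3, 11.7 and 14.7 CPM in the isotype libraries and 8.52, 9.31, 16.9, 5.11 and 10.6 CPM in the anti–IL-4Rα libraries. Every OVA-challenged library lay above every PBS library, with isotype replicate 1 and anti–IL-4Rα replicate 4 the lowest of their groups. The log2 fold change was 1.70 for isotype against PBS (95% CI, 1.01 to 2.39, edgeR adjusted p = 0.00506) and 1.50 for anti–IL-4Rα against PBS (0.81 to 2.18, adjusted p = 0.0303). Between anti–IL-4Rα and isotype it was -0.20 (-0.87 to 0.46, adjusted p = 0.676), an interval that leaves room for a fall or a rise. The call of Cd4 against PBS in the anti–IL-4Rα group ended when any of 7 libraries was left out, namely PBS replicates 1 to 4 and anti–IL-4Rα replicates 1, 2 and 5 (edgeR adjusted p between 0.0513 and 0.0824). The log2 fold change of Cd4 in those fits lay between 1.39 and 1.56. With 1 library left out, the number of all genes called in this comparison ranged from 82 to 2029, against 707 with all libraries.

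Cd8a (chr6:71373427-71379173, plus strand), the α chain of the coreceptor for MHC class I, rested on 22 to 113 counts per library. Its CPM values were 0.619, 0.56, 0.478, 0.478 and 0.387 in the PBS libraries, 1.53, 1.16, 1.4, 1.4 and 2.02 in the isotype libraries and 0.682, 0.829, 1.56, 0.988 and 0.638 in the anti–IL-4Rα libraries. The groups did not overlap between PBS and either challenged group, and among the anti–IL-4Rα libraries only replicate 3 reached the isotype values. Cd8a rose by a log2 fold change of 1.56 in isotype against PBS (95% CI, 1.05 to 2.08, edgeR adjusted p = 0.00176). With anti–IL-4Rα instead of isotype the value was -0.66 (-1.16 to -0.16, adjusted p = 0.0685), and against PBS it was 0.90 (0.38 to 1.42, adjusted p = 0.0542), both past the threshold only before adjustment. Without anti–IL-4Rα replicate 3, Cd8a and Tnfrsf4 were called lower than in the isotype group, and without isotype replicate 1, Icos and Gata3 were.

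Cd3e (chr9:44998740-45009627, minus strand) encodes the ε chain of CD3, carried by all T cells. The PBS libraries had 2.82, 1.83, 2.37, 2.81 and 3.23 CPM, the isotype libraries 2.35, 2.83, 3.57, 2.38 and 4.17 CPM and the anti–IL-4Rα libraries 2.15, 3.32, 4.98, 2.08 and 3.02 CPM. The 3 groups overlapped throughout. The log2 fold change was 0.23 in isotype against PBS (95% CI, -0.30 to 0.75, edgeR adjusted p = 0.556), 0.03 in anti–IL-4Rα against isotype (-0.49 to 0.55, adjusted p = 0.945) and 0.26 in anti–IL-4Rα against PBS (-0.27 to 0.78, adjusted p = 0.574). The upper limit of 0.75 lies below 1.70, the estimate for Cd4.

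The other receptor chains were described to see where Cd3e stood among them. Of the CD3 chain genes, Cd3d had a log2 fold change of 0.73 in isotype against PBS (edgeR adjusted p = 0.0307), and Cd3g and Cd247 had 0.31 (adjusted p = 0.403) and 0.23 (adjusted p = 0.516). Trac, the constant region of the T cell receptor α chain used by CD4 and CD8 T cells, rose from a mean of 1.11 ± 0.183 CPM to 2.14 ± 0.666 CPM (SD, n = 5; log2 fold change 0.94, edgeR adjusted p = 0.0205), with no overlap. Trbc1 and Trbc2, the β chain constant regions, had -0.01 (adjusted p = 0.984) and 0.17 (adjusted p = 0.568). The γδ receptor genes went the other way: Trdc fell by 0.87 on the log2 scale (edgeR adjusted p = 0.0381), from 3.78 ± 0.908 to 2.07 ± 0.642 CPM, and Tcrg-C1 fell by 0.92 (adjusted p = 0.0395), from 2.31 ± 0.470 to 1.22 ± 0.368 CPM. Trdc counts per Trac count averaged 3.41 ± 0.732 in the PBS group, 0.983 ± 0.235 in the isotype group and 1.33 ± 0.426 in the anti–IL-4Rα group (SD, n = 5), a ratio that was chosen after its values were seen and was not tested, as were Trbc1, Trbc2, Trdc and Tcrg-C1 as examples. These calls were near the threshold. That of Cd3d ended when any of 6 libraries was left out, PBS replicates 2, 3 and 4 and isotype replicates 2, 3 and 5 (edgeR adjusted p up to 0.0779), and that of Trac with any of PBS replicate 2 and isotype replicates 3 and 5 left out (up to 0.053). That of Trdc ended when any of 8 libraries was left out (PBS replicates 1, 3, 4 and 5 and isotype replicates 1 to 4, adjusted p up to 0.0925), and that of Tcrg-C1 also with any of 8 (PBS replicates 1, 2, 4 and 5 and isotype replicates 1 to 4, up to 0.0865).

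**Figure D2:**
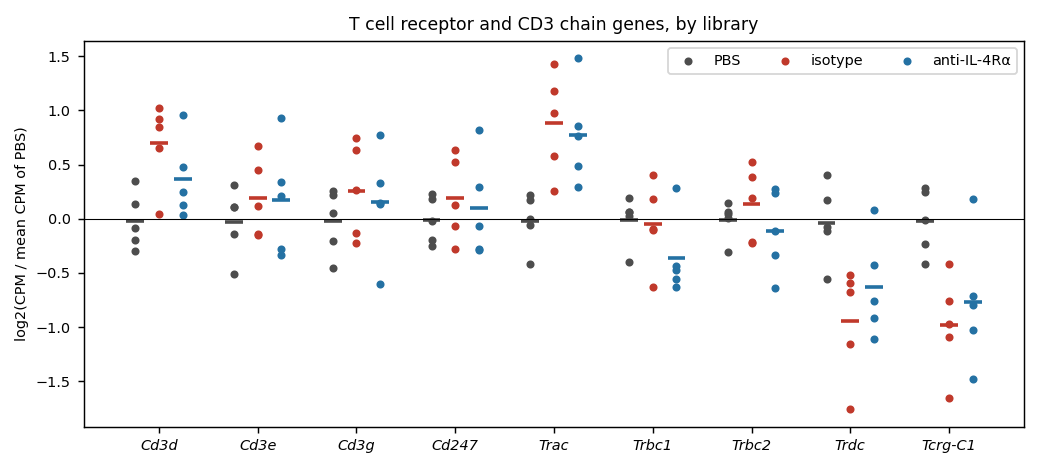
Log2 of each library's CPM over the mean CPM of the PBS group (vertical axis) for 9 genes of the T cell receptor and CD3 chains, with bars at the group means. Trac points of both OVA-challenged groups lie above 0, 9 of their 10 Trdc points and 9 of their 10 Tcrg-C1 points lie below 0, and Cd3e, Cd3g, Cd247, Trbc1 and Trbc2 lie on both sides.

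Foxp3 (chrX:7573644-7595245, plus strand) encodes the lineage factor of regulatory T cells, and its second promoter window is the one printed above with STAT5-type and GATA letters. The other Foxp3 window holds none of the motifs searched. Its CPM values were 0.99, 0.662, 0.973, 1.15 and 0.931 in the PBS group, 1.45, 3.33, 3.38, 2.39 and 3.79 in the isotype group and 2.45, 2.4, 4.25, 1.41 and 2.22 in the anti–IL-4Rα group, from 39 to 325 counts per library. All 10 challenged libraries lay above the 5 PBS libraries, and the lowest were again isotype replicate 1 and anti–IL-4Rα replicate 4. The log2 fold change was 1.61 in isotype against PBS (95% CI, 0.98 to 2.24, edgeR adjusted p = 0.00414) and 1.44 in anti–IL-4Rα against PBS (0.81 to 2.07, adjusted p = 0.0255). In anti–IL-4Rα against isotype it was -0.17 (-0.77 to 0.43, adjusted p = 0.703). The call in the anti–IL-4Rα group ended when any of 5 libraries was left out, PBS replicates 1, 2 and 4 and anti–IL-4Rα replicates 1 and 5 (edgeR adjusted p between 0.05 and 0.0739). The log2 fold change of Foxp3 in those fits lay between 1.34 and 1.52. The annotated span of Foxp3 is shared with 4 genes, Flicr on the same strand and Ppp1r3f, Gm36995 and Ccdc22 on the opposite strand. Whether counting used strand is not given in the sources used here, so reads of these genes may be divided among them. Flicr itself had 23, 39 and 41 counts summed over the PBS, isotype and anti–IL-4Rα libraries, against 279, 944 and 717 for Foxp3. Of the genes on the opposite strand, Ccdc22 had 5429, 6344 and 4761, Gm36995 had 991, 1042 and 845, and Ppp1r3f had 756, 659 and 588.

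Il2ra (chr2:11642807-11693193, plus strand), the α chain of the IL-2 receptor, had 2.2, 1.39, 2.07, 2.16 and 2.21 CPM in PBS libraries. Isotype libraries had 2.53, 4.76, 3.69, 3.16 and 4.97 CPM, and anti–IL-4Rα libraries had 3.22, 3, 4.34, 2.57 and 3.4 CPM. No challenged library came down to the PBS range. Il2ra rose by a log2 fold change of 0.93 in isotype against PBS (95% CI, 0.51 to 1.35, edgeR adjusted p = 0.00853), and the value in anti–IL-4Rα against PBS was 0.72 (0.30 to 1.14, adjusted p = 0.057). Anti–IL-4Rα differed from isotype by -0.21 (-0.63 to 0.21, adjusted p = 0.469).

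Ctla4 (chr1:60887000-60915832, plus strand), the inhibitory receptor for CD80 and CD86, had 3, 1.97, 2.9, 2.77 and 2.23 CPM after PBS drops. The isotype values were 3.17, 3.03, 3.62, 3.16 and 4.08 CPM, and the anti–IL-4Rα values were 3.43, 3, 3.88, 2.57 and 3.59 CPM. The isotype libraries lay above the PBS libraries without overlap, by a narrow margin. Such a separation held for 6.85% of all genes in the higher direction and 5.43% in the lower. The log2 fold changes were 0.40 (95% CI, 0.10 to 0.71, edgeR adjusted p = 0.064) in isotype against PBS, 0.36 (0.05 to 0.66, adjusted p = 0.153) in anti–IL-4Rα against PBS and -0.05 (-0.35 to 0.25, adjusted p = 0.834) in anti–IL-4Rα against isotype.

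Il10 (chr1:131019845-131024974, plus strand), an anti-inflammatory cytokine made by regulatory T cells and by several other leukocytes, had the lowest mean level per length (FPKM) of the members in the PBS and anti–IL-4Rα groups. The estimated counts were 4, 4, 4, 1 and 0 in the PBS libraries, 8, 55, 30, 13 and 69 in the isotype libraries and 18, 25, 16, 5 and 5 in the anti–IL-4Rα libraries. The corresponding CPM ran up to 0.0708 in the PBS group, between 0.163 and 1.25 with isotype and between 0.118 and 0.383 with anti–IL-4Rα, so neither challenged group overlapped the PBS group. Among the isotype libraries replicate 5 was the highest and replicate 1 the lowest. The log2 fold change was 3.58 in isotype against PBS (95% CI, 2.16 to 5.00, edgeR adjusted p = 0.00438), a wide interval, and the PBS group held 13 counts in all. Between anti–IL-4Rα and isotype it was -1.10 (-2.24 to 0.05, adjusted p = 0.169), and in anti–IL-4Rα against PBS 2.48 (0.98 to 3.99, adjusted p = 0.0625).

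Icos (chr1:60977927-61000320, plus strand), the costimulatory receptor for ICOS ligand, had 2.58, 1.49, 2.16, 1.99 and 1.44 CPM in the PBS group. The isotype libraries had 2.12, 5.34, 6.51, 3.83 and 6.3 CPM and the anti–IL-4Rα libraries 3.11, 3.65, 4.2, 2.12 and 3.99 CPM. In both challenged groups 4 of 5 libraries lay above all PBS libraries, and the exceptions were isotype replicate 1 and anti–IL-4Rα replicate 4. Icos rose by 1.32 in log2 fold change in isotype against PBS (95% CI, 0.71 to 1.92, edgeR adjusted p = 0.00885). The value was 0.82 in anti–IL-4Rα against PBS (0.22 to 1.42, adjusted p = 0.104) and -0.50 in anti–IL-4Rα against isotype (-1.09 to 0.10, adjusted p = 0.224).

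Tnfrsf4 (chr4:156013843-156016612, plus strand), which encodes OX40, the receptor for OX40 ligand, had 4.39, 4.31, 3.77, 4.28 and 4.46 CPM in PBS replicates 1 to 5, then 5.27, 5.97, 5.66, 4.42 and 5.54 CPM with the isotype antibody and 3.54, 4.33, 5.6, 3.78 and 4.91 CPM with anti–IL-4Rα. Of the isotype libraries, only replicate 4 fell within the PBS range. The log2 fold change was 0.34 in isotype against PBS (95% CI, 0.08 to 0.60, edgeR adjusted p = 0.0654), -0.28 in anti–IL-4Rα against isotype (-0.53 to -0.02, adjusted p = 0.127) and 0.06 in anti–IL-4Rα against PBS (-0.19 to 0.32, adjusted p = 0.806). With any of isotype replicate 4 and anti–IL-4Rα replicates 1 and 3 left out, Tnfrsf4 was called higher in the isotype group than in the PBS group.

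Gata3 (chr2:9857078-9890034, minus strand), the T helper 2 lineage factor, is also made by epithelium and hair follicle. It had 114, 96.3, 71.2, 98.6 and 101 CPM in PBS libraries. It had 90.3, 143, 117, 93.8 and 96.1 CPM in isotype libraries and 61.3, 73.5, 86.9, 82.5 and 97.1 CPM in anti–IL-4Rα libraries, from 2878 to 13957 counts per library. The groups overlapped, with the highest value in isotype replicate 2 and the lowest in anti–IL-4Rα replicate 1. Its span overlaps 3 genes of lower count, Gm13256, 4930412O13Rik and 9230102O04Rik, of which 4930412O13Rik had 363, 423 and 301 summed counts in the 3 groups against 28893, 36036 and 21165 for Gata3. The log2 fold change was 0.17 in isotype against PBS (95% CI, -0.16 to 0.49, edgeR adjusted p = 0.479), -0.43 in anti–IL-4Rα against isotype (-0.76 to -0.10, adjusted p = 0.0708) and -0.26 in anti–IL-4Rα against PBS (-0.59 to 0.06, adjusted p = 0.322).

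**Figure D3:**
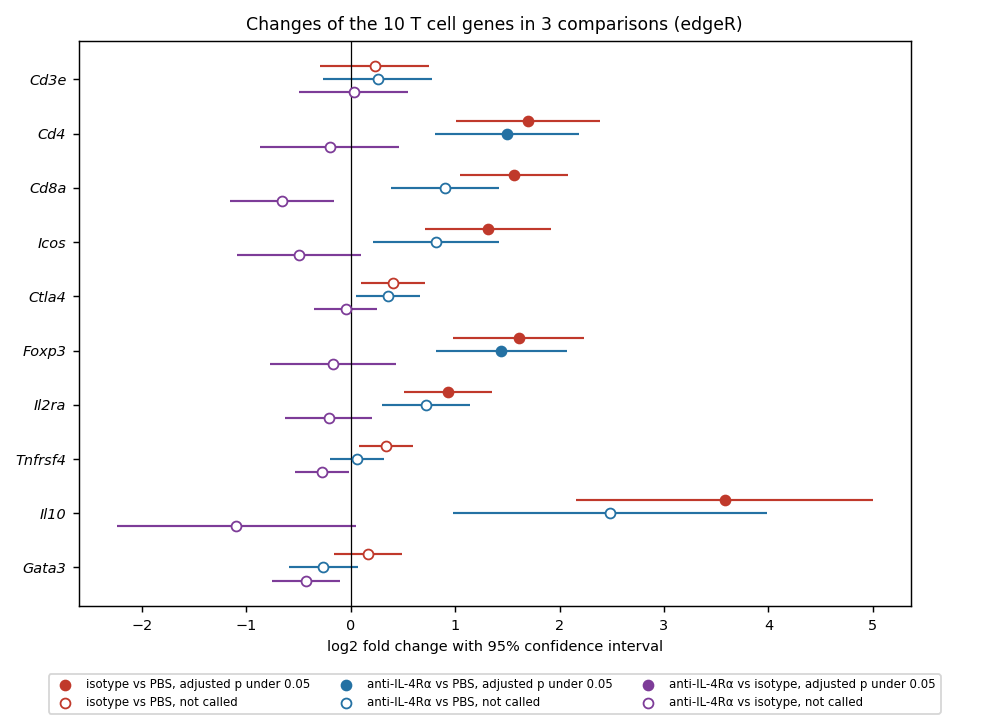
Log2 fold changes of the 10 genes (horizontal axis) with 95% confidence intervals from edgeR in the 3 comparisons, filled where the adjusted p was under 0.05. Filled points are Cd4, Cd8a, Icos, Foxp3, Il2ra and Il10 in isotype against PBS and Cd4 and Foxp3 in anti–IL-4Rα against PBS, and no point is filled in anti–IL-4Rα against isotype.

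Levels of different genes were compared per length, as FPKM (CPM scaled to exon length in kilobases). Gata3 was first in each group, with means of 24.2 ± 3.90, 27.2 ± 5.56 and 20.2 ± 3.41 FPKM in the PBS, isotype and anti–IL-4Rα groups (SD, n = 5). Tnfrsf4 was the next in each group, with 3.11 ± 0.201, 3.93 ± 0.430 and 3.25 ± 0.616 FPKM. Per length, Gata3 exceeded Tnfrsf4 by 6.22-fold to 7.78-fold and Foxp3 by 36.3-fold to 118-fold, depending on the group. Below Tnfrsf4 in the PBS group came Ctla4 (1.10 FPKM), Cd4 (0.889), Cd3e (0.640), Icos (0.564), Il2ra (0.351), Foxp3 (0.206), Cd8a (0.139) and Il10 (0.0325). In both challenged groups Cd4 moved up to stand after Tnfrsf4, with 2.88 ± 1.16 FPKM in the isotype group (SD, n = 5). Neighbours in this order mostly could not be separated: the ranges of 8 of 9 neighbouring pairs overlapped in each challenged group, and those of 5 of 9 in the PBS group.

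Ratios of counts within a library do not depend on how libraries are scaled, and 5 ratios were tested in 3 comparisons by exact permutation (two-sided), adjusted over the 15 tests, which share genes and libraries. Foxp3 per Cd3e was 0.351, 0.361, 0.41, 0.408 and 0.288 in the PBS libraries, 0.617, 1.17, 0.948, 1.01 and 0.909 in the isotype libraries and 1.14, 0.723, 0.854, 0.679 and 0.734 in the anti–IL-4Rα libraries. Both challenged groups lay above the PBS group without overlap, 2.53-fold for isotype and 2.25-fold for anti–IL-4Rα as ratios of geometric means (exact permutation p = 0.00794 each, the smallest these groups allow, adjusted p = 0.0298). Foxp3 per Cd4 averaged 0.262 ± 0.0125, 0.259 ± 0.0667 and 0.256 ± 0.0300 in the PBS, isotype and anti–IL-4Rα groups (SD, n = 5), and differed by log2 values of -0.06 to 0.01 between groups (exact permutation adjusted p from 0.923 to 0.929).

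Ctla4 per Foxp3 went the opposite way, from 2.76 ± 0.323 in the PBS group to 1.31 ± 0.508 in the isotype group and 1.40 ± 0.349 in the anti–IL-4Rα group (SD, n = 5), with no overlap with PBS. The isotype value was 0.455 of the PBS value and the anti–IL-4Rα value 0.497 of it, as ratios of geometric means (exact permutation p = 0.00794, adjusted p = 0.0298 for both). For Icos per Cd3e the ratio of geometric means was 2.04 in isotype over PBS and 1.53 in anti–IL-4Rα over PBS, but the groups overlapped (exact permutation p = 0.0238, adjusted p = 0.0595 for both). Cd8a per Cd4 averaged 0.146 ± 0.0450, 0.151 ± 0.0800 and 0.103 ± 0.0520 in the 3 groups (SD, n = 5), and the exact permutation adjusted p was 0.223 or above. For the 5 ratios, anti–IL-4Rα against isotype gave exact permutation adjusted p values of 0.223 or above, with log2 differences from -0.53 to 0.13. The Foxp3 per Cd3e calls ended without PBS replicate 5 (adjusted p = 0.0595), and the Ctla4 per Foxp3 call in isotype against PBS ended without any 1 of the 5 PBS libraries (adjusted p = 0.0595). The Ctla4 per Foxp3 call in anti–IL-4Rα against PBS ended without PBS replicate 5 (adjusted p = 0.0595). With these libraries left out, both ratios of the challenged groups still did not overlap those of the PBS group. Cd4 per Cd3e, chosen after its values were seen and not tested, averaged 1.39 ± 0.224, 3.76 ± 1.13 and 3.23 ± 0.592 (SD, n = 5).

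**Figure D4:**
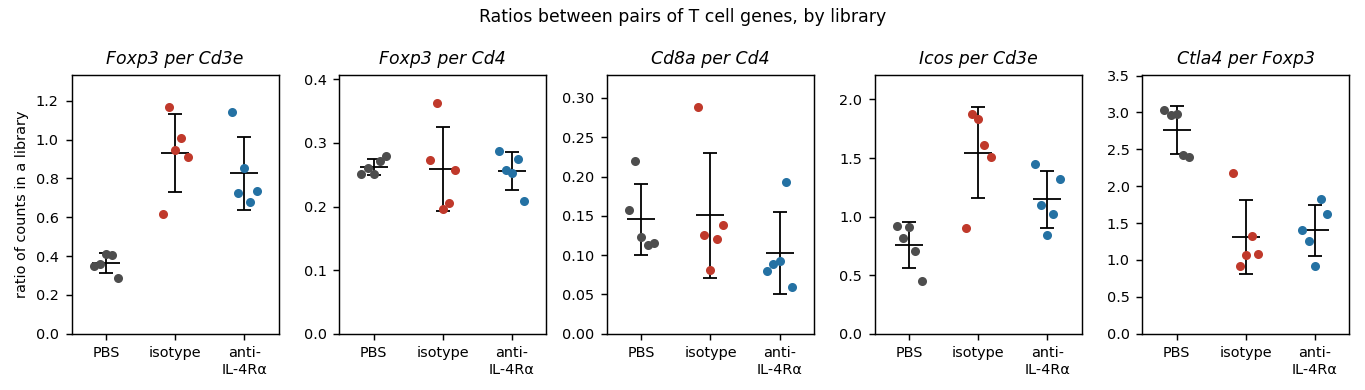
Ratios of counts of 5 gene pairs in each library (vertical axes from 0), by group, with mean and SD (n = 5). Foxp3 per Cd3e is higher and Ctla4 per Foxp3 lower in both OVA-challenged groups than in PBS without overlap, and Foxp3 per Cd4 is centred near 0.26 in the 3 groups.

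The members varied together inside the groups to unequal degrees. Over the 15 libraries, with each group's mean removed from log2 CPM, the Pearson r over the 45 pairs had a median of 0.42, a description in which all values of a library share its depth and tissue mix. The highest were Cd4 with Foxp3 (0.91), Foxp3 with Il2ra (0.90), Cd4 with Icos (0.86) and Foxp3 with Icos (0.85). Cd3e, whose groups overlapped, varied with Foxp3 (0.81) and Cd4 (0.79). Gata3 varied with Tnfrsf4 (0.69) but hardly with Cd4 (0.18), Foxp3 (0.24) or Il10 (-0.16), and Cd8a had its highest value with Cd3e (0.42).

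**Figure D5:**
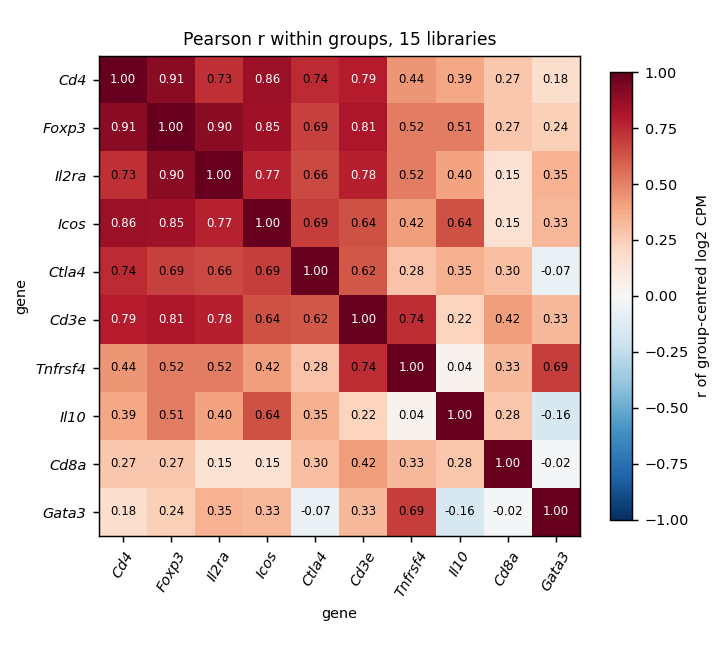
Pearson r between each pair of the 10 genes over 15 libraries, computed on log2 CPM with group means removed (rows and columns are genes, color gives r). Cd4, Foxp3, Il2ra, Icos, Ctla4 and Cd3e form a block with r of 0.62 to 0.91, and Gata3 and Cd8a stand outside it.

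Over all genes tested, the 5 with the highest r to each of 6 members were listed. They were picked as the highest among 19006 genes over 15 libraries, so a high r can come from the choice alone. No r was tested, and those of Il10 rest on 0 to 4 counts in each PBS library. For Foxp3 they were Ptprc, which encodes the leukocyte antigen CD45 (0.95), Itgae, which encodes the integrin CD103 (0.94), Mmp25, Mpeg1 and Dock10. For Icos they were Tbc1d2b (0.92), Cd6, Il10ra, Mpeg1 and Cxcr4, and for Cd4 they were Plxnc1 (0.98), Myo1f, Arhgap45, Gm13710 and the myeloid lysozyme gene Lyz2 (0.94). For Gata3 they were Mcc (0.95), Lypd6b, Enox1, Dlx5 and Apcdd1 (0.94), for Cd8a Slc25a24 (0.88), BC030500, Xkr4, Ccdc82 and Igkv4-55, and for Il10 Dnah7a (0.90), Bfsp1, Nipa2, Ifi214 and Mlkl.

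Markers of the cells that the tissue could hold were set beside the members. Mean log2 CPM of 22 pan-T genes had an r of 0.94 with Foxp3, 0.92 with Cd4, 0.87 with Icos, 0.46 with Cd8a and 0.28 with Gata3 after removal of group means. Cd8a had a higher r with γδ T, natural killer and innate lymphoid genes (0.64), other helper lineages (0.63) and B cell genes (0.63). Il10 had 0.52 with the pan-T genes and 0.68 with the macrophage and monocyte genes. Macrophages and dendritic cells of mice can also carry CD4, and the r of Cd4 with 10 macrophage and monocyte genes was 0.84 and with 10 dendritic cell genes 0.87. Such values were not particular to Cd4. With the same lists Foxp3 had 0.81 and 0.90, and Cd3e had 0.73 and 0.93. Of the 10 macrophage and monocyte genes, 6 were called higher in isotype than in PBS, and their summed CPM lay between 596 and 655 with PBS, 672 and 1277 with isotype, and 714 and 1112 with anti–IL-4Rα. None of the 10 was at 0 in every library. The r of Gata3 was 0.48 with 8 hair follicle and meibomian gland genes, whose summed CPM was highest in isotype replicate 2 (10827, against 3740 to 5335 in the other isotype libraries), the library with the most Gata3. The part of these cells in the values of Cd4, Cd8a, Il10 and Gata3 was not tested. Of 6 skeletal muscle genes, 5 were called lower and 0 higher in isotype than in PBS (median log2 fold change -0.68). Their summed CPM lay between 5917 and 10761 with PBS, 3628 and 5563 with isotype, and 4682 and 6913 with anti–IL-4Rα, so the PBS and isotype groups, between which 6 members were called, did not overlap. None of the muscle genes was called in the other 2 comparisons, and their part in the members' values was not tested. Lacrimal acinar genes (7) had negative r with all 10 members, from -0.29 for Gata3 to -0.59 for Foxp3, and their summed CPM had medians of 342, 589 and 3522 in the PBS, isotype and anti–IL-4Rα groups. With their score as a covariate, edgeR called 8, 0 and 4 of the 10 members in isotype against PBS, anti–IL-4Rα against isotype and anti–IL-4Rα against PBS. Without the 3 libraries with the highest scores, anti–IL-4Rα replicates 1, 4 and 5, a choice made after seeing the data, it called 7, 0 and 0. The log2 fold changes between anti–IL-4Rα and isotype of Foxp3 and Ctla4 turned positive with the covariate (0.11 and 0.05), and without those libraries Cd4 (0.18), Foxp3 (0.21) and Ctla4 (0.02) did.

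Around the members, the pan-T list had 11 of 22 genes called higher in isotype than in PBS and 0 called lower (median log2 fold change 0.64). Cd2, an adhesion receptor, rose by 1.45 (edgeR adjusted p = 0.00228), Lck, the kinase bound to CD4 and CD8, by 1.19 (adjusted p = 0.00296) and Cd27, a costimulatory receptor, by 0.97 (adjusted p = 0.00982). Cd8b1, the partner chain of Cd8a, rose by 1.50 (adjusted p = 0.0208), a call that ended without PBS replicate 5 (adjusted p = 0.0513). Cd28 had 0.71 (adjusted p = 0.0705). In anti–IL-4Rα against isotype, 2 of the 22 were called lower (Thy1, -0.40, adjusted p = 0.0451, and Bcl11b, -0.39, adjusted p = 0.0432) and 0 higher by edgeR, with a median of -0.32. Of all genes tested, 8.13% were called lower in this comparison. In the isotype group Thy1 and Bcl11b averaged 146 and 56.7 CPM, against 3.06 CPM for Cd3e. The part of T cells in the values of these 2 genes was not tested. Both calls ended with any of PBS replicates 2, 3 and 4, isotype replicates 2, 3 and 5 and anti–IL-4Rα replicates 1, 2, 4 and 5 left out (adjusted p up to 0.114), that of Thy1 also with PBS replicate 1 or 5. Without PBS replicate 2, 3 or 4 the log2 fold changes were still -0.40 for Thy1 and -0.39 for Bcl11b. Against PBS, 1 gene in the anti–IL-4Rα group was called higher (Cd2, 1.13, adjusted p = 0.0277), a call lost with any of PBS replicates 1, 2 and 4 and anti–IL-4Rα replicate 5 left out (up to 0.0749).

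Of 17 T helper 2 genes, 14 were tested and 8 were called higher in isotype than in PBS, with 0 called lower (median 0.77). Il4 rose from 0.1 ± 0.0437 to 0.341 ± 0.150 CPM (SD, n = 5; log2 fold change 1.74, edgeR adjusted p = 0.0166) and Il13 from 0.345 ± 0.0965 to 0.855 ± 0.191 CPM (1.30, adjusted p = 0.00717). Il5 was below the filter with 0 to 13 counts per library, and Il9 and Il31 had 0 counts in every library, where 3 counts is the limit that a count of 0 allows. Il1rl1, the IL-33 receptor, rose by 2.27 (adjusted p = 0.000936) and Il6 by 4.04 (adjusted p = 0.00108). Over the PBS libraries Il4 held 30 counts in all and Il6 held 25. Between anti–IL-4Rα and isotype, 3 of the 14 were called lower, against 8.13% of all genes. Il1rl1 fell by 1.60 on the log2 scale (adjusted p = 0.00769), Il6 by 2.29 (adjusted p = 0.0141) and Il4ra by 1.06 (adjusted p = 0.0119). Il4 and Il13 had -0.41 (adjusted p = 0.485) and -0.70 (adjusted p = 0.0811) there and were not called. In the isotype group Il4ra, Il1rl1 and Il6 averaged 107, 18.4 and 1.38 CPM, against 3.06 CPM for Cd3e. Of 8 mast cell and basophil genes, 5 were called higher in isotype than in PBS and 0 lower (median 1.03), against 9.53% of all genes called higher. The parts of T cells and of other cells in the values of Il4, Il13, Il4ra, Il1rl1 and Il6 were not tested. Against PBS, only Ccr3, a chemokine receptor also carried by eosinophils, was called in the anti–IL-4Rα group (1.63, adjusted p = 0.0309), a call that ended with any of PBS replicates 1 to 4 and anti–IL-4Rα replicates 2 and 5 left out (up to 0.0757).

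Of 18 regulatory T cell-associated genes tested, 8 were called higher in isotype than in PBS and 0 lower (median 0.33). They included Lag3 (1.60, edgeR adjusted p = 0.000567) and Tigit (2.14, adjusted p = 0.00324), which encode inhibitory receptors, Tnfrsf9 (1.61, adjusted p = 0.00253), which encodes the costimulatory receptor 4-1BB, and Izumo1r (2.57, adjusted p = 0.00662), which encodes folate receptor 4. Izumo1r held 15 counts in all over the PBS libraries. Ikzf2 and Tnfrsf18, the genes of Helios and GITR, had -0.21 (adjusted p = 0.143) and 0.15 (adjusted p = 0.429). With anti–IL-4Rα instead of isotype, 5 of the 18 were called lower and 0 higher: Areg, an epidermal growth factor family ligand, by -1.04 (adjusted p = 0.00867), Lag3 by -0.81 (adjusted p = 0.0185), Tnfrsf9 by -0.88 (adjusted p = 0.0392), Tnfrsf18 by -0.47 (adjusted p = 0.0287) and Prdm1, a transcription factor of effector lymphocytes, by -0.39 (adjusted p = 0.0267). The call of Lag3 ended without isotype replicate 3 (adjusted p = 0.0549), that of Tnfrsf18 with any of isotype replicates 2, 3 and 5 and anti–IL-4Rα replicates 1 and 2 left out (up to 0.0728), and that of Prdm1 with any of isotype replicates 2 and 3 and anti–IL-4Rα replicates 1, 2 and 4 left out (up to 0.0685). That of Tnfrsf9 ended with any of isotype replicates 2, 3 and 5 and anti–IL-4Rα replicates 1, 2, 4 and 5 left out (up to 0.101). Tnfrsf9 was named after its values were seen. Of all genes tested, 8.13% were called lower in anti–IL-4Rα against isotype.

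Of the 18, 4 were called above PBS in the anti–IL-4Rα group, against 2.28% of all genes called higher. They were Izumo1r (2.38, edgeR adjusted p = 0.0322), Tigit (1.54, adjusted p = 0.0402), Klrg1 (1.31, adjusted p = 0.0363) and Lag3 (0.78, adjusted p = 0.0434). Each of these calls ended with any of PBS replicates 1, 2 and 4 and anti–IL-4Rα replicates 1 and 5 left out (edgeR adjusted p up to 0.11). That of Klrg1 also ended with PBS replicate 3 or anti–IL-4Rα replicate 2 left out. That of Tigit also ended with any of PBS replicate 5, isotype replicates 3 and 4 and anti–IL-4Rα replicates 2 and 4 left out, and that of Lag3 with any of these or with PBS replicate 3 left out. Of the named genes, Lag3 and Tigit are also carried by effector T cells and natural killer cells, and the others need not come from regulatory T cells. In the isotype group Prdm1, Tnfrsf18, Areg, Lag3 and Tnfrsf9 averaged 53.7, 15.4, 8.92, 4.51 and 2.40 CPM, against 2.87 CPM for Foxp3. The part of regulatory T cells in the values of these genes was not tested.

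The ligands and partner chains of the members had 5 of 11 tested genes called higher in isotype than in PBS and 0 lower (median 0.41). Of the 4 receptor partners, 3 rose: Il2rb, the β chain that joins Il2ra, by 1.40 (edgeR adjusted p = 0.00373), Il2rg by 0.85 (adjusted p = 0.01) and Il10ra, an IL-10 receptor chain, by 1.06 (adjusted p = 0.00234). Il10rb, the other chain of that receptor, had 36.0 ± 1.31 CPM with PBS and 37.9 ± 4.17 CPM with isotype (SD, n = 5), a log2 fold change of 0.07 (edgeR adjusted p = 0.451), and was named after its values were seen. Of the ligands on antigen-presenting cells, Cd80 rose by 0.90 (adjusted p = 0.00615), and Cd86 and Icosl had 0.41 (adjusted p = 0.0991) and 0.13 (adjusted p = 0.37). Il2 (0 to 9 counts per library) and Tnfsf4, the gene of OX40 ligand (2 to 13 counts), were below the filter. In anti–IL-4Rα against isotype, 1 of the 11 was called lower and 0 higher, against 8.13% of all genes called lower. It was Tgfb1 (-0.32, adjusted p = 0.0471), a call lost with any library left out other than isotype replicates 1 and 4 and anti–IL-4Rα replicate 3 (adjusted p up to 0.114). Il2rb had -0.76 (adjusted p = 0.0512). In anti–IL-4Rα against PBS only Il10ra was called (0.66, adjusted p = 0.0492), a call that ended with any of 11 libraries left out (PBS replicates 1 to 5, isotype replicates 3 and 4, anti–IL-4Rα replicates 1, 2, 3 and 5, adjusted p up to 0.116).

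For comparison, 4 of 12 tested genes of other helper lineages were called higher in isotype than in PBS. Tbx21, the T helper 1 factor, rose by 0.81 (edgeR adjusted p = 0.00946) and the chemokine receptor gene Cxcr3 by 1.50 (adjusted p = 0.00207). Ifng was below the filter, and Il17a fitted -2.89 (adjusted p = 0.0598) on 0 to 42 counts per library. Between anti–IL-4Rα and isotype, where 8.13% of all genes were called lower, 2 were called lower (Stat4, -0.87, adjusted p = 0.042, and Il12rb2, -1.16, adjusted p = 0.0314). The Stat4 call ended with any of 11 libraries left out (PBS replicates 1, 2, 4 and 5, isotype replicates 2, 3 and 5, anti–IL-4Rα replicates 1, 2, 4 and 5, adjusted p up to 0.0972) and the Il12rb2 call with any of 7 (those of isotype and anti–IL-4Rα just named, up to 0.0824). Of 11 activation and checkpoint genes, 4 were called higher and 0 lower in isotype against PBS, among them Tnfrsf8, the gene of CD30 (1.24, adjusted p = 0.0117). With anti–IL-4Rα instead of isotype 2 were called lower (Cd44, -0.50, adjusted p = 0.0361, and Slamf1, -1.11, adjusted p = 0.0393), but each call ended with any of isotype replicates 2, 3 and 5 and anti–IL-4Rα replicates 1, 2 and 5 left out, that of Slamf1 also with PBS replicate 4 or anti–IL-4Rα replicate 4 (adjusted p up to 0.0939). Of 11 γδ T, natural killer and innate lymphoid genes, 7 were called higher and 2 lower (Trdc and Tcrg-C1) in isotype against PBS. The granzyme genes Gzma and Gzmb rose by 2.59 (adjusted p = 0.000567) and 3.49 (adjusted p = 0.000344) and then fell by 1.75 (adjusted p = 0.00537) and 1.60 (adjusted p = 0.0146) in anti–IL-4Rα against isotype.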

How the data were processed

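Per the labels and methods, polyA-selected RNA was read in pairs, and the authors mapped the reads uniquely to the B38 mouse genome in Omicsoft Array Studio. The authors deposited estimated counts per gene, unscaled. Their methods report 2 outliers without naming them, and their RNA-Seq figures give n of 4 to 5. All deposited libraries were kept here, so the sets of samples may differ from theirs. Library totals ran from 48622246 to 87745024. Values were rounded, and genes reaching 10 counts in 5 or more libraries were fitted in edgeR 4.0.16 (TMM, quasi-likelihood, one model of 3 groups, two-sided), in R 4.3.3, with Benjamini-Hochberg adjustment over 19006 genes. Calls used an adjusted p under 0.05. CPM are counts scaled to library size with TMM factors, FPKM use exon lengths from GENCODE M21 (GRCm38), and a prior count of 2 entered log2 CPM. Alternatives were upper quartile factors, DESeq2 1.42.0, limma 3.58.1 (voom with quality weights), limma on log2(CPM + 1) or log2(FPKM + 1) scaled to the upper quartile, other filters, 2-group fits, a replicate block, a lacrimal score and leaving out each library. The members and the 17 gene lists were chosen with earlier results of these data known. All members were named. From each list, at most 4 called genes per comparison (smallest adjusted p) and a set of 25 fixed genes could be named. Counts of lists are descriptions, with no set test. A gene of these lists is not reported here.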

Additional observations from a re-analysis of the deposited data

Results flagged for a closer look

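In 30 sets of 5 libraries (10 genes in 3 groups), 2 held a library set apart from the others by Dixon's criterion, about as many as the 1 in 20 that chance gives. Il2ra in PBS replicate 2 had 1.39 CPM, below 2.07 to 2.21 CPM in the other PBS libraries. Tnfrsf4 in PBS replicate 3 had 3.77 CPM, below 4.28 to 4.46 CPM in the other PBS libraries.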

How the results depend on the processing

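The 6 members called in isotype against PBS were called in all 10 other settings and in all 15 fits that left out 1 library, with 6 to 8 members called in the settings and 6 to 7 in the fits. In anti–IL-4Rα against isotype, 0 members were called, but DESeq2 called 2, limma voom 1 and the model on log2(CPM + 1) 1, with 0 to 2 when 1 library was left out. For anti–IL-4Rα against PBS, 2 were called, compared with 6 with DESeq2, 4 with limma voom, 4 with the lacrimal score as covariate, 0 on log2(FPKM + 1) and 0 without the 3 libraries with the highest lacrimal scores (a setting chosen after seeing the data), with 0 to 4 when 1 library was left out. The causes were not tested. One model covered the 3 groups, so a library outside a comparison also entered its fit. In anti–IL-4Rα against isotype, the PBS libraries whose absence ended a call left the log2 fold changes nearly unchanged. Without them Tgfb1 was -0.32, Slamf1 was -1.11 and Stat4 lay between -0.875 and -0.874. Low counts limit Il10 (13 in the PBS group) and Cd8a (22 to 113 per library), and no interval between anti–IL-4Rα and isotype was narrow enough to show that a member did not change. Among other named genes, low counts also limit Izumo1r, Il6 and Il4 (15, 25 and 30 in the PBS group).

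Replicate numbers were not used to pair the samples. The correlation of deviations of same-numbered libraries lay between -0.38 and 0.45 and was over 0.1 in 4 of 15 pairs. These correlations cannot show whether libraries of the same number were handled together. With the replicate block, 6, 0 and 2 members were called in the 3 comparisons. For ratios, the paired sign-flip test over 5 pairs cannot go below p = 0.0625 (exact), so with the replicate block the Foxp3 per Cd3e differences of 1.34 (isotype against PBS) and 1.17 (anti–IL-4Rα against PBS) and the Ctla4 per Foxp3 differences of -1.14 and -1.01 were not called (exact adjusted p = 0.234). With summed Cd3d, Cd3e, Cd3g and Cd247 as denominator, Icos per Cd3e in isotype against PBS was called at 0.96 (exact permutation adjusted p = 0.0476).

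Leaving out 1 library moved the log2 ratio differences over these ranges. Foxp3 per Cd3e ran from 1.25 to 1.48 in isotype against PBS and from 1.05 to 1.23 in anti–IL-4Rα against PBS. Foxp3 per Cd4 ran from -0.19 to 0.037, from -0.079 to 0.14 (anti–IL-4Rα against isotype) and from -0.086 to 0.029 (anti–IL-4Rα against PBS). Cd8a per Cd4 ran from -0.31 to 0.15 in isotype against PBS and from -0.83 to -0.41 in anti–IL-4Rα against PBS. Icos per Cd3e ran from 0.85 to 1.21, from -0.60 to -0.31 and from 0.43 to 0.72 in the 3 comparisons. It was called without isotype replicate 1 (1.21 and -0.60) and, against PBS, without anti–IL-4Rα replicate 3 (0.72). Cd8a per Cd4 in anti–IL-4Rα against PBS was called without anti–IL-4Rα replicate 4 (-0.83). Ctla4 per Foxp3 ran from -1.34 to -1.02 and from -1.11 to -0.86 against PBS.

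Over the members and other named genes, 4020 values kept direction and call, 310 lost a call, 96 gained one and 75 changed sign. No value that changed sign had an adjusted p below 0.477. In isotype against PBS, Trbc1 was 0.0012 with DESeq2, 0.064 with limma voom, 0.0022 with no filter and 0.066 with the lacrimal score, and ran from -0.13 to 0.11 with 1 library left out. Between anti–IL-4Rα and isotype, Cd3e was -0.21 with limma voom, -0.0031 on log2(CPM + 1) and -0.00046 on log2(FPKM + 1), and Ikzf2 was -0.021 with limma voom. With the lacrimal score, Foxp3 was 0.11, Ctla4 0.050, Cd3g 0.066, Cd247 0.11, Trac 0.15, Icosl 0.014, Cd28 0.11, Ccr3 0.026 and Izumo1r 0.027. Without the 3 libraries, Cd4 was 0.18, Foxp3 0.21, Ctla4 0.017, Cd3g 0.26, Cd247 0.35, Trac 0.22, Il4 0.040, Icosl 0.097, Cd86 0.022, Cd28 0.31, Cd2 0.021, Ccr3 0.33, Izumo1r 0.089 and Klrg1 0.29. For anti–IL-4Rα against PBS, the lacrimal score gave Il17a 0.012, Trbc2 0.13 and Areg 0.11, leaving out the 3 libraries gave Trbc2 0.013, limma voom gave Slamf1 -0.11, and Cd44 was -0.00081 on log2(CPM + 1) and -0.0044 on log2(FPKM + 1).

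With 1 library left out, these ran in anti–IL-4Rα against isotype from -0.21 to 0.17 for Cd3e, -0.12 to 0.027 for Ctla4, -0.26 to 0.063 for Cd3g, -0.29 to 0.057 for Cd247, -0.33 to 0.044 for Trac, -0.022 to 0.099 for Ikzf2, -0.098 to 0.0066 for Icosl, -0.29 to 0.10 for Cd28, -0.053 to 0.43 for Tcrg-C1, -0.49 to 0.0086 for Ccr3, -0.51 to 0.048 for Izumo1r and -0.21 to 0.12 for Klrg1. For anti–IL-4Rα against PBS they ran from -0.035 to 0.13 for Tnfrsf4, -0.060 to 0.26 for Cd247, -0.18 to 0.038 for Trbc2, -0.055 to 0.15 for Cd44 and -0.15 to 0.29 for Slamf1.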
